A study of Mus musculus with 24 samples.

Results

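Man1a and 8 of its neighbours on chromosome 10 were followed through RNA sequencing of the mouse otocyst, the epithelial vesicle that becomes the inner ear. Man1a was chosen by its large rise in transgenic pools of these same libraries, so its own rise is a description and carries no test. The neighbours, Fam184a, Mcm9, Asf1a, Cep85l, Tbc1d32, Gja1, Hsf2 and Serinc1, were taken from the genes near it. They are not the 8 nearest: Slc35f1, for 1, lies nearer (793.2 kb) than Tbc1d32, Gja1, Hsf2 and Serinc1. All 9 genes were among the 15736 genes of the count table, and all 9 passed the filter on low counts in each comparison. The question was whether the rise was shared by genes around Man1a and whether it followed, from library to library, the level of Ighg1. Ighg1 encodes the constant region of an immunoglobulin heavy chain.

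Both groups of embryos carried Rosa26rtTA/+, which makes the doxycycline-dependent activator rtTA from the broadly active Rosa26 locus. Control pools (con) had that allele alone, and experimental pools (R2b) also had Tg(tetO-s(dn)Fgfr2b)/+, a tetO transgene for a secreted dominant-negative form of the receptor FGFR2b. All pregnant females, those of con embryos included, received doxycycline, 1.5 mg/kg by injection and then chow with 200 mg/kg. The exposures are called by their embryonic day of onset and their length: E9.75+12h is 12 hours of doxycycline begun at E9.75, and E9.25+24h and E10.25+24h are 24 hours begun at E9.25 and at E10.25. Otocyst epithelia of 1 litter were pooled by genotype, so each litter gave a con and an R2b pool, and a value is an average over the embryos of a pool. Counts were used for 3 litters at E9.75+12h and for 4 each at the other exposures, which makes 22 libraries of 18.7 to 28.2 M counts. The 11 otic epithelial markers checked (such as Pax2, Oc90 and Epcam) were all in the table, with summed levels of 2306 to 7655 counts per M (CPM). Over the same libraries 6 endothelial markers summed to 6.31 to 252 CPM and the 6 of 7 blood markers in the table to 9.47 to 4804 CPM.

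FGFR2b is the epithelial splice form of a receptor tyrosine kinase that binds FGF3 and FGF10, and the otocyst needs these ligands for its early shaping. The secreted form binds ligand away from the cell. As background to Ighg1, secreted receptors of this kind are made as a fusion of the receptor ectodomain with an immunoglobulin constant region, so reads of such a transgene can fall on Fgfr2 and Ighg1. Man1a encodes a Golgi alpha-mannosidase of class I, which trims mannose from N-linked glycans of proteins on their way to the cell surface. Trimming by this enzyme and its relatives Man1a2, Man1b1 and Man1c1 opens the way to complex glycans.

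In the libraries labelled con, Ighg1 was nearly silent at E9.75+12h (0.994, 1.37 and 1.99 CPM) and at E9.25+24h (0.0481 to 0.248 CPM). In the R2b libraries it reached 1025 to 3056 CPM and 1230 to 1902 CPM. At E10.25+24h the labels and Ighg1 parted. The libraries labelled con held 679, 1.42, 201 and 0.736 CPM in litters 1 to 4, and those labelled R2b held 54.6, 1155, 817 and 823 CPM. Litter 1 thus went against its labels, and the library labelled con of litter 3 also held many Ighg1 counts. Fgfr2 did likewise, at 879, 231, 404 and 208 CPM in con against 313, 1238, 872 and 965 CPM in R2b. Every direction at E10.25+24h below is that of the labels.

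Man1a (ENSMUSG00000003746) lies on the minus strand of chromosome 10, from 53904785 to 54076609 on GRCm38, and is protein coding. At E9.75+12h its level was 13.3, 7.46 and 13.0 CPM in con and 84.1, 170 and 75.5 CPM in R2b. The lowest R2b library stood well above the highest con library. The difference was 3.31 on the log2 scale (SE 0.31), and 2.62 with litter 2 left out, whose R2b library held the most Man1a and the most Ighg1.

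At E9.25+24h the level was 11.6, 12.7, 9.26 and 15.9 CPM in con and 107, 119, 97.7 and 116 CPM in R2b. Again no library of one group reached the other, and Man1a was higher in R2b in 4 of 4 litters. The difference was 3.16 (SE 0.15), a ratio of means of 8.91. By size of rise, Man1a ranked 4 of 14979 genes tested at this exposure and 2 of 14882 at E9.75+12h.

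At E10.25+24h the libraries labelled con held 255, 20.1, 67.9 and 22.6 CPM, and those labelled R2b held 60.5, 182, 200 and 220 CPM. The library with the most Man1a of all 22 was the one labelled con of litter 1. The groups overlapped, Man1a was higher in R2b in 3 of 4 litters, and the difference was 0.86 (SE 0.78). With litter 1 left out and the litter as a replicate block, the difference was 2.63 (SE 0.33). With the con libraries of litters 1 and 3 left out, it was 2.97 (SE 0.53). Those held the most Ighg1 of the con libraries and also the most Man1a. Leaving out litter 1, or these con libraries, thus raises the difference by construction, and the larger values support nothing.

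Ordered by mean, the groups ran from con at E9.75+12h (11.2 ± 3.29 CPM, SD, n = 3) and con at E9.25+24h (12.4 ± 2.76, n = 4) to con at E10.25+24h (91.4 ± 111, n = 4). R2b followed at E9.75+12h (110 ± 52.3, n = 3), E9.25+24h (110 ± 9.66, n = 4) and E10.25+24h (166 ± 71.8, n = 4). The lowest pair of groups did not differ beyond their spread, nor did the highest 4. Library titles carry a number prefix that differs between exposures and whose meaning the labels do not give, so exposure and what the prefix marks cannot be told apart in these levels. In bulk pools, more cells making a transcript and more transcript per cell also cannot be told apart.

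**Figure D1:**
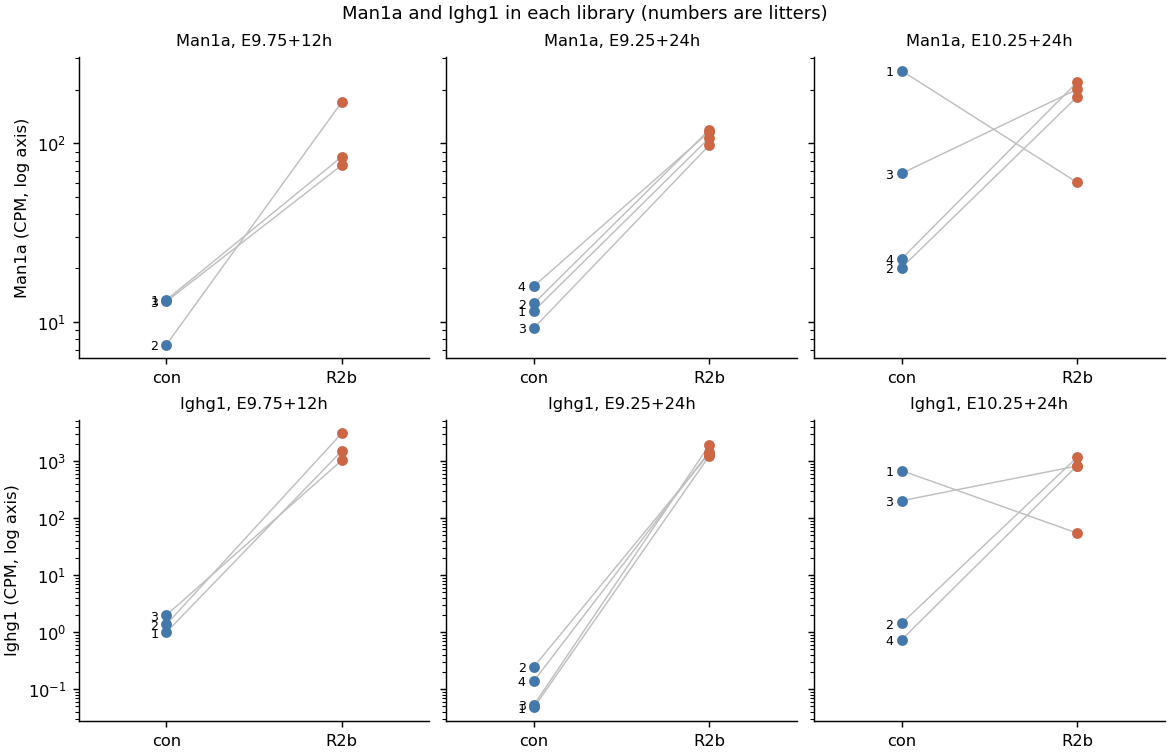
Level of Man1a (upper row) and Ighg1 (lower row) in each library, in CPM on a log axis, for con and R2b pools of the 3 exposures. Each point is 1 library, lines join the pools of a litter, and digits give the litter: at E10.25+24h litter 1 runs downward for both genes, from 255 to 60.5 CPM for Man1a and from 679 to 54.6 CPM for Ighg1.

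Because the contrast of con and R2b chose Man1a, its relation to Ighg1 was tested over R2b libraries alone. Across all 11, log2 levels gave Pearson r = 0.43 (permutation p = 0.184, two-sided) and Spearman rho = -0.06 (permutation p = 0.861). A pooled r mixes 3 exposures, each with too few R2b libraries (3 or 4) for an r of its own. With each library taken as its deviation from the mean of its exposure, r was 0.92 and rho was 0.86. R2b of litter 1 at E10.25+24h was the lowest in Ighg1. With it left out as well, r was 0.70 (permutation p = 0.0448) and rho was 0.35 (permutation p = 0.327). The rank relation thus rests on that library. Leaving it out of the centred values was chosen after the data were seen, and the p was not adjusted. Litter 1 went against its labels at E10.25+24h, so with its R2b library the contrast that chose Man1a enters the centred values. The p of r = 0.92 and rho = 0.86 is thus not given, and these values support nothing. The permutations also shuffled libraries across exposures. Without the libraries farthest from the median of Ighg1 (R2b of litter 2 at E9.75+12h and R2b of litter 1 at E10.25+24h), the pooled r was -0.64 (permutation p = 0.0663). Adjusted over 2 relations, this one and that of Man1a to Ighg1 over the libraries of E10.25+24h, the p of the pooled r was 0.184.

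The R2b libraries show what lies behind these values. At E9.75+12h the order of Ighg1 (3056, 1500 and 1025 CPM in litters 2, 1 and 3) was that of Man1a (170, 84.1 and 75.5 CPM). At E9.25+24h it was not: litter 3 had the most Ighg1, 1902 CPM, and the least Man1a, 97.7 CPM. At E10.25+24h, R2b of litters 2, 3 and 4 held more Man1a (182 to 220 CPM) than any R2b library of the other exposures, at Ighg1 levels (817 to 1155 CPM) below most of them. Among these, litter 2 had the most Ighg1, 1155 CPM, and the least Man1a, 182 CPM. So E9.75+12h, with litter 2 highest in both genes, was the only exposure where Man1a and Ighg1 shared an order in R2b.

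Over the 8 libraries of E10.25+24h, both labels together, r was 0.96 and rho was 0.76. Without litter 1 these were 0.97 and 0.77 over 6 libraries. Without the con libraries of litters 2 and 4, the farthest from the median of Ighg1, they were 0.90 and 0.49. These values contain the difference between con and R2b that chose Man1a, so their p is not given and supports nothing. A straight line through the con and R2b libraries of each exposure together was fitted after the values were seen. It gave 5.17 CPM of Man1a per 100 CPM of Ighg1 at E9.75+12h (SE 0.23), 6.09 (SE 0.86) at E9.25+24h and 18.4 (SE 4.14) at E10.25+24h. These slopes contain the same difference between con and R2b, so neither they nor their SE measure a relation within R2b libraries.

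**Figure D2:**
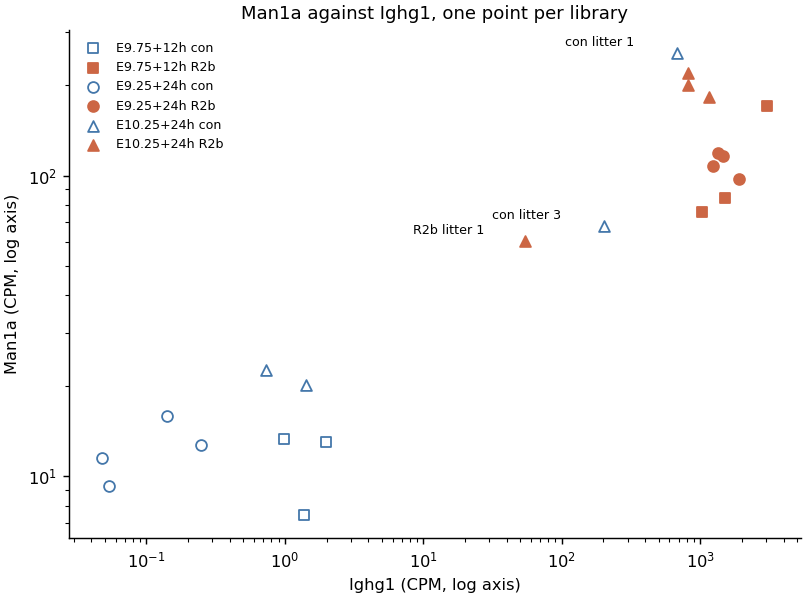
Man1a against Ighg1, both in CPM on log axes, with 1 point per library; open symbols are con, filled symbols are R2b, and the shape gives the exposure. The library labelled con of litter 1 at E10.25+24h sits among R2b libraries (679 CPM of Ighg1, 255 CPM of Man1a), and con of litter 3 and R2b of litter 1 lie between the clouds.

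Genes were ranked by the Pearson r of their log2 level with that of Man1a over the 22 libraries, each centred on its exposure mean. The 5 most alike of 15687 were Ighg1 (0.97), Trp53inp2 (0.96), Fgfr2 (0.96), Anxa5 (0.95) and Plekhm3 (0.95). Trp53inp2 takes part in autophagy, and Anxa5 encodes a protein that binds phospholipids in the presence of calcium. At E9.25+24h Trp53inp2 held 54.8 to 65.8 CPM in con and 85.2 to 105 CPM in R2b, a smaller difference (0.63, SE 0.08) than that of Man1a. Anxa5 held 54.8 to 63.3 CPM in con and 85.9 to 98.4 CPM in R2b. Among the neighbours, Gja1 had r = 0.82 (rank 494), Serinc1 0.69 (rank 1576) and Tbc1d32 0.41 (rank 3966). Hsf2 (-0.04), Asf1a (-0.06), Cep85l (-0.08), Fam184a (-0.15) and Mcm9 (-0.39) did not follow Man1a in this measure. These correlations share the con to R2b difference and the litters, and they are descriptions.

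The promoter windows of Man1a and Gja1 are shown because these were the members with the largest differences, and because the windows contrast in base composition. Each holds the 191 bases from 250 to 60 bases before the start annotated by RefSeq on GRCm38.p6, written 5′ to 3′ in the direction of the gene, with matches to the searched motifs in capitals. The Man1a window is chr10:54075797-54075987 on the minus strand. It lies inside the gene coordinates given above, since RefSeq places the start further inside than the outermost GENCODE transcript does, and it holds no exon of Man1a. The Gja1 window is chr10:56377050-56377240 on the plus strand.
Man1a: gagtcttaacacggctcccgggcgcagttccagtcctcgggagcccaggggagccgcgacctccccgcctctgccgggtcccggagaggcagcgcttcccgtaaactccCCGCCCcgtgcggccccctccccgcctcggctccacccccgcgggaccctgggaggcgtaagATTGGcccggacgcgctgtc
Gja1: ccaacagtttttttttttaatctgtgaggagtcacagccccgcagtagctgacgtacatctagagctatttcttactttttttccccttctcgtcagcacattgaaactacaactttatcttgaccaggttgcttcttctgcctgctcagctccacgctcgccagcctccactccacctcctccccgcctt
The motifs, searched on both strands, were the GC box GGGCGG (in 23.1% of 32851 such windows), CCAAT (26.9%), TATAAA (8.8%), the ETS core CCGGAA (7.5%) and the AP-1 site TGANTCA (5.3%). The Man1a window held 1 GC box and 1 CCAAT, had 74.3% G and C, and held 22 CpG. The Gja1 window held none of the 5 motifs, had 48.7% G and C, and held 6 CpG, against medians of 51.3% and 4 CpG over all windows. A high share of G and C was not particular to Man1a. It was 74.3% for Asf1a, 79.6% for Fam184a, 67.0% for Mcm9, 63.4% for Hsf2 and 50.8% for Cep85l. Of the Man1a window, 66 bases lie in exons of Gm16998, a noncoding gene on the opposite strand that was not among the genes analysed. A match is a description of these letters only.

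The nearest neighbours lie on the side of lower coordinates. Fam184a, which encodes a coiled-coil protein, begins 153.7 kb from Man1a. Its level was 16.6 to 21.7 CPM in con and 18.2 to 19.8 CPM in R2b at E9.75+12h, and 15.3 to 20.1 against 15.8 to 17.9 CPM at E9.25+24h. The groups overlapped at all 3 exposures, with differences of 0.01 (SE 0.14), -0.06 (SE 0.10) and -0.03 (SE 0.11), none called. Here and below a call is an FDR under 0.05, the p of edgeR's quasi-likelihood test after Benjamini-Hochberg adjustment over all genes tested.

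Mcm9 encodes a helicase used in homologous recombination, and Asf1a a chaperone that hands histones H3 and H4 to the assembly machinery. The gaps to Man1a are 274.3 kb and 295.6 kb. Asf1a lies inside Mcm9 on the opposite strand, and the use of strand in the counting was not given in the sources used here, so reads of the pair cannot be told apart. Mcm9 held 26 to 28.5 CPM in con and 22.4 to 26.7 CPM in R2b at E9.75+12h, and 30.3 to 32.9 against 29.4 to 33.4 CPM at E9.25+24h.

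At E9.75+12h Asf1a held 67.9, 57.4 and 60.8 CPM in con against 44.6, 67.8 and 41.6 CPM in R2b. Litters 1 and 3 were lower in R2b and litter 2 was higher, and the difference of -0.25 (SE 0.17) was not called (FDR 0.318). With litter 2 left out it was -0.56 (FDR 0.00779), in a fit that called 27.1% of 14984 genes. At E9.25+24h Asf1a held 78.0 to 89.1 CPM in con and 82.7 to 91.0 CPM in R2b. That difference was 0.08 (SE 0.05, FDR 0.343).

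Cep85l encodes a centrosomal protein, and its gap to Man1a is 524.8 kb. It had the lowest level of the 9 genes, 4.90 to 13.1 CPM over all libraries, and was not called at any exposure. The highest value was con of litter 4 at E9.25+24h, where R2b of the same litter held 9.54 CPM. Both libraries of that litter also had the highest summed level of 8 mesenchyme markers at that exposure (723 and 672 CPM, against 64.2 to 217 CPM in the other litters). The part of those cells in Cep85l was not tested.

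The other members lie on the side of higher coordinates. Tbc1d32, needed for cilia and Hedgehog signalling, is 1937.7 kb from Man1a and overlaps Msl3l2 on the opposite strand. It held 20.8 to 28.1 CPM in con and 24.5 to 27.2 CPM in R2b at E9.25+24h, and was not called at any exposure. Hsf2, a heat shock transcription factor, is 3409.8 kb away. At E9.75+12h Hsf2 held 78.6, 71.5 and 80.7 CPM in con and 53.9, 83.2 and 55.0 CPM in R2b, a difference of -0.24 (SE 0.16, FDR 0.297). As with Asf1a, litter 2 ran the other way, and without it the difference was -0.53 (FDR 0.00506), in the fit that called 27.1% of all genes. At E9.25+24h the 2 groups of Hsf2 held 68.6 to 78.2 and 72.6 to 77.1 CPM.

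Gja1 (ENSMUSG00000050953) encodes connexin 43, the subunit of gap junction channels found in many embryonic epithelia and mesenchyme. It lies on the plus strand from 56377330 to 56402513, 2300.7 kb from Man1a. At E9.25+24h its level was 304, 264, 385 and 301 CPM in con and 569, 550, 685 and 712 CPM in R2b. Every R2b library lay above every con library. Gja1 rose by 1.01 on the log2 scale (SE 0.12, FDR 0.00204), higher in 4 of 4 litters, and stayed called under each of 18 alternatives, with a highest FDR of 0.0327 without litter 1.

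At E9.75+12h Gja1 held 372, 377 and 441 CPM in con and 423, 853 and 433 CPM in R2b. Only litter 2 showed a large difference, and litter 3 was slightly lower in R2b. The difference of 0.54 (SE 0.22) was not called (FDR 0.109). It was 0.09 without litter 2 and 0.78 (FDR 0.0428) without litter 3, where the fit called 11.8% of all genes. At E10.25+24h the libraries labelled con held 450, 265, 313 and 201 CPM and those labelled R2b held 205, 634, 435 and 472 CPM. Litter 1 ran downward, as it did for Man1a and Ighg1, and the difference was 0.51 (SE 0.34, FDR 0.9999). With litter 1 left out and the litter as a replicate block, it was 1.01 (SE 0.15, FDR 0.027), in a fit that called 4.04% of 15195 genes.

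The 8 mesenchyme markers held 64.5 to 723 CPM in con and 64.2 to 672 CPM in R2b at E9.25+24h. The part of these or of other cell types in the Gja1 difference was not tested.

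Serinc1, a membrane protein named for carrying serine into lipids, is 3439.2 kb from Man1a. At E9.25+24h its level was 171, 170, 180 and 173 CPM in con and 188, 192, 200 and 199 CPM in R2b. The groups did not overlap and the rise was small, 0.17 (SE 0.04, FDR 0.0219), in 4 of 4 litters. It was not called under 7 of 18 alternatives: without litters 1, 2 or 4, without con of litter 1, without R2b of litters 2 or 3, and with all libraries in one fit (highest FDR, 0.121). The differences at the other exposures were 0.06 (SE 0.11, FDR 0.725) at E9.75+12h and 0.05 (SE 0.06, FDR 0.9999) at E10.25+24h.

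**Figure D3:**
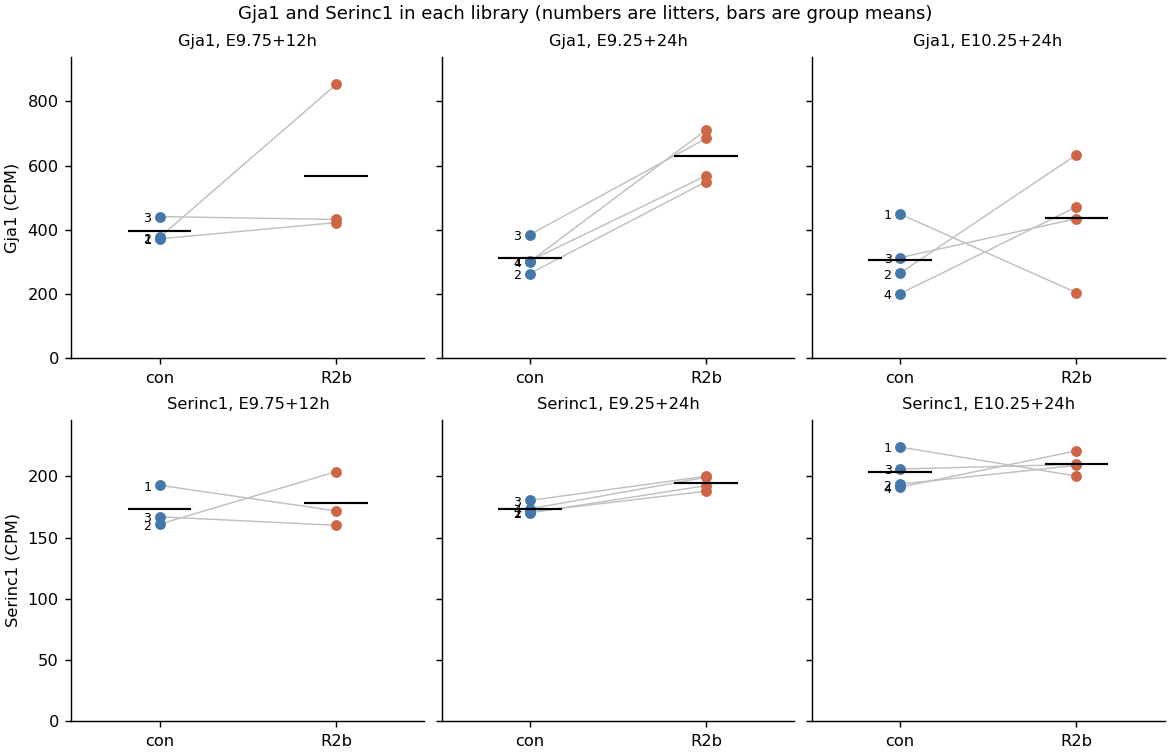
Level of Gja1 (upper row) and Serinc1 (lower row) in each library, in CPM, for con and R2b pools of the 3 exposures; lines join the pools of a litter, digits give the litter and bars are group means. At E9.25+24h the con libraries of Gja1 sit between 264 and 385 CPM, all below the R2b libraries at 550 to 712 CPM.

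Per kb of annotated exon, Gja1 and Serinc1 were the most abundant members in con at E9.25+24h (30.6 ± 4.97 and 33.7 ± 0.90 CPM per kb, SD, n = 4), then Asf1a (22.7 ± 1.31) and Hsf2 (7.57 ± 0.43). Mcm9, Fam184a and Tbc1d32 held 2.28 to 3.41 CPM per kb, and Man1a (1.28 ± 0.29) and Cep85l (1.1 ± 0.37) were the lowest and overlapped within their spread. In R2b at that exposure Man1a held 11.4 ± 1.0 CPM per kb, between Asf1a (23.9 ± 0.98) and Hsf2 (7.75 ± 0.21).

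Counted over the 8 neighbours, 0 were called at E9.75+12h, where edgeR called 20.0% of 14882 genes. By the same edgeR fit, Gja1 was the 1 neighbour of 8 with an unadjusted p under 0.05 there, beside 5216 of the 14882 genes. At E9.25+24h 2 of 8 (25%) were called, Gja1 and Serinc1, where 15.6% of 14979 genes were called. At E10.25+24h 0 were called, as were 0 of all 15203 genes (0%). The count at an unadjusted p under 0.05 was 0 of 8 neighbours and 175 of all genes. With litter 1 left out there, 0 neighbours and 0 of 15195 genes were called by edgeR, and with the litter also as a replicate block 1 neighbour, Gja1, was called (4.04% of all genes). The differences of the other 7 in that fit ran from -0.08 to 0.15. The median difference of the neighbours was -0.04, 0.06 and 0.03 in the order of the exposures, beside 0.01, -0.01 and 0.00 for all genes tested.

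Within 5 Mb on each side of Man1a the annotation has 156 genes, of which 41 are protein coding, and 26 were in the table. Of those other than Man1a, 3 of 23 tested (13%) were called at E9.75+12h, 4 of 24 (16.7%) at E9.25+24h and 0 of 25 at E10.25+24h. With litter 1 left out and the replicate block, 2 were called at E10.25+24h, Grik2 and Gja1. Over all of chromosome 10 the shares were 22.1%, 19.3% and 0%. The calls ran in both directions. Ranbp2, a nuclear pore protein, fell at both exposures, from 355 to 358 CPM in con to 262 to 296 CPM in R2b at E9.75+12h (-0.33, SE 0.09, FDR 0.0236). The con range at E9.25+24h was 388 to 406 CPM and the R2b range 342 to 378 CPM (-0.15, SE 0.04, FDR 0.0437). Neither call of Ranbp2 was firm. At E9.75+12h it was lost under 8 of 15 alternatives (FDR 0.0636 with the litter as a replicate block). At E9.25+24h it was lost under 10 of 18, each leaving out a litter or a library. With the block at E9.25+24h it stayed called, in a fit that called 40.6% of all genes. Its highest FDR there, 0.195, came without litter 2, where the fit called 3.06% of all genes. The other window genes called are named after their values were seen.

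At E9.75+12h, Ros1, a receptor tyrosine kinase, rose by 1.68 (SE 0.43, FDR 0.0188) at very low levels, 5 to 17 counts per con library and 29 to 55 per R2b library, and its call was lost when any 1 of the 3 litters was left out. Slc35f1, a transporter-family gene 793.2 kb from Man1a, fell by 0.55 (SE 0.13, FDR 0.0125), from 36.8 to 48.4 CPM in con to 26.7 to 29.8 CPM in R2b. Its call was lost without litter 1 (FDR 0.22), in a fit that called 2.92% of all genes. At E9.25+24h, Msl3l2 rose by 0.60 (SE 0.11, FDR 0.00965), from 7.06 to 7.94 CPM in con to 9.93 to 12.3 CPM in R2b. Its call was lost without litter 1 or litter 2 (FDR 0.078 and 0.0767), in fits that called 2.15% and 3.06% of all genes. With the litter as a replicate block, the window calls at E9.25+24h numbered 9 (Ranbp2, Slc35f1, Nus1, Smpdl3a, Grik2, Msl3l2, Gja1, Serinc1 and Gopc), in a fit that called 40.6% of all genes. Among these 9, the neighbours were again Gja1 and Serinc1.

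**Figure D4:**
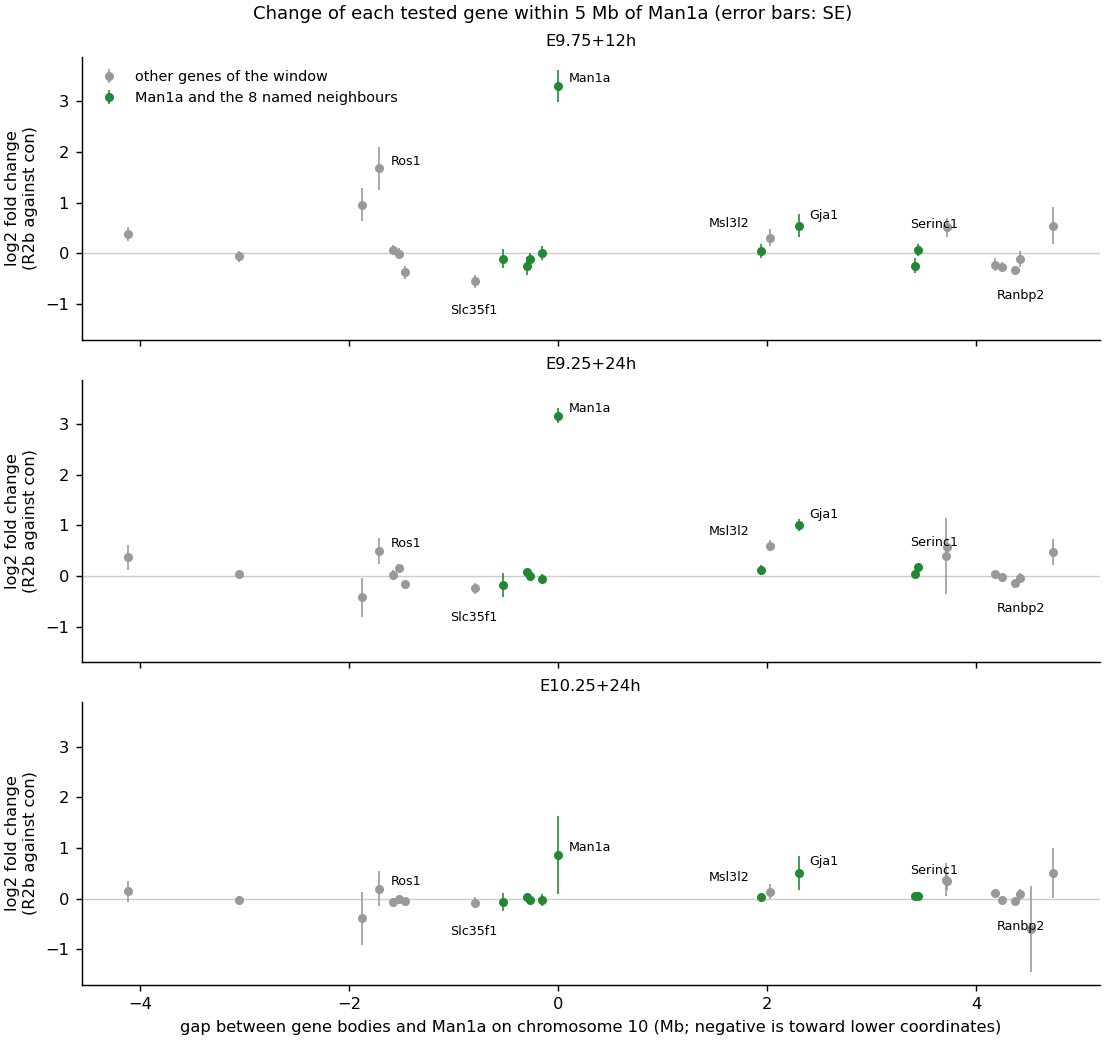
Log2 fold change of R2b against con, with its SE, for each tested gene within 5 Mb of Man1a, by gap to Man1a in Mb, at the 3 exposures; green marks Man1a and its 8 named neighbours. Man1a stands at 3.31, 3.16 and 0.86, and the members on the side of lower coordinates lie within 0.25 of 0.

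The differences between con and R2b were also compared between exposures, in a fit of all libraries. None of the 9 members was called, and neither was any other of 15688 genes (0%), for E9.25+24h against E9.75+12h or for E10.25+24h against E9.25+24h. For Gja1 the difference of effects was 0.48 (SE 0.42, FDR 0.67) and -0.50 (SE 0.39, FDR 0.816). Without litter 1 of E10.25+24h the latter was -0.02 (SE 0.30, FDR 0.9999). So the call of Gja1 at E9.25+24h alone does not show that its response differed between exposures. Nor does the lack of calls show that responses were alike. The fit of all libraries held litter 1 of E10.25+24h, which went against its labels. For E9.25+24h against E9.75+12h its SE was 0.91 for Man1a, where the separate fits gave 0.15 and 0.31. For Gja1 the separate fits gave 0.12 and 0.22, each smaller than the 0.42 above. Ighg1, at -11.8 (SE 2.36) for E10.25+24h against E9.25+24h, was also uncalled (FDR 0.0838).

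The N-glycan pathway around Man1a was read from a list of 38 genes in which Man1a itself was left out, and all 38 were tested. At E9.75+12h 2 were called (5.26%, beside 20.0% of all genes), Edem2 higher (0.52) and Mgat4a lower (-0.61). Both calls were lost without litter 1, in a fit that called 2.92% of all genes. At E9.25+24h 9 were called (23.7%, beside 15.6%), 5 higher and 4 lower, and at E10.25+24h 0 (beside 0% of all genes). With the litter as a replicate block 14 were called higher and 5 lower at E9.25+24h, in a fit that called 40.6% of all genes. Without litter 1 of that exposure 1 was called higher and 0 lower (2.15% of all genes). Without litter 2 of E9.75+12h 2 were higher and 9 lower (27.1% of all genes). The median differences were -0.01, 0.05 and 0.02. Of the 3 class I relatives of Man1a, Man1a2 and Man1b1 had differences of at most 0.10 in size at each exposure. Man1c1 was at -0.35 (FDR 0.135) and -0.70 (FDR 0.114) in the first 2 exposures, uncalled, and lower in R2b in each litter. With the litter as a replicate block at E9.25+24h it was called lower (FDR 0.000176).

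The enzyme that acts later in the Golgi, Man2a1, rose at E9.25+24h from 101 to 112 CPM in con to 154 to 164 CPM in R2b (0.58, SE 0.05, FDR 0.000585). Its relative Man2a2 rose by 0.23 (SE 0.05, FDR 0.0168), and B4galt1, which adds galactose, by 0.26 (SE 0.06, FDR 0.0198). Lower were St6gal1, which caps chains with sialic acid (-0.30, FDR 0.0154), Mgat4a, a branching enzyme (-0.53, FDR 0.0335), and Edem1 and Edem3, which act on misfolded proteins (-0.18, FDR 0.0355, and -0.23, FDR 0.0331). The call of Man2a1 held under each of 18 alternatives. Those of the other 6 named here were lost under 2 (St6gal1) to 11 (Edem1) of the 18, in each case without litter 1 and without litter 2. Without those litters the fits called 2.15% and 3.06% of all genes. No called member of the list moved by more than 0.61 in size, where Man1a moved by over 3 at these exposures.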

How the data were processed

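Poly(A)-selected RNA of pooled mouse otocyst epithelia was sequenced from stranded libraries, per the labels' protocols. Values are raw read counts per gene as deposited by the authors. The reads were aligned with Novoalign 2.08.03 to mm10, per the submitters' processing notes. The counting tool, its use of strand and the annotation are not given in the sources used here. Every value was a whole number, and the lowest gene total was 108. Of 24 samples, 22 had a column whose name matched their title. The 2 samples without one are both pools of 1 litter at E9.75+12h, and 2 columns that name no sample were not used.

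Gene positions and symbols came from GENCODE M21 on GRCm38, and 15522 of 15736 genes had a symbol. Each exposure was tested alone with edgeR 4.0.16 (R 4.3.3), with filterByExpr, TMM scaling and glmQLFTest, and p-values adjusted over all genes. Printed CPM values share TMM factors over all 22 libraries. Correlations used log2 CPM with a prior count of 2 and a two-sided permutation test with 1e+05 resamples. The fits were tested on simulated data. DESeq2 1.42.0 was an alternative.

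Litters pair the pools by the labels, which name the female. On the values, deviations of the pools of a litter from their group means correlated across genes at -0.24 to -0.08 for E9.75+12h, 0.36 to 0.73 for E9.25+24h, and -0.10 to 0.37 for E10.25+24h. The members and lists were chosen with earlier results of these data known. Named genes are the members, Ighg1, Fgfr2, window genes called at 2 or more exposures, the 5 genes most like Man1a, class I and later mannosidases, and at most 4 other called genes of the N-glycan list per exposure. No 2 libraries were identical, and all 30 same-group pairs differed by more than sampling noise (chi-square over its degrees of freedom, 5.22 to 41.4). Reads carry no molecular identifiers. The result of 1 other marker list is not reported here.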

Additional observations from a re-analysis of the deposited data

Results flagged for a closer look

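In 44 sets of 4 libraries of a gene and group, 3 had a library whose gap to the nearest other, as a share of the range, passed Dixon's 95% limit. Chance gives about 1 in 20. Man1a in the library labelled R2b of litter 1 at E10.25+24h was 60.5 CPM, below the other 3. Ighg1 in the same library was 54.65 CPM, again below the others. Cep85l in con of litter 4 at E9.25+24h was 13.07 CPM, above the others.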

How the results depend on the processing

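The relation of Man1a to Ighg1 centred on exposures without litter 1, and the alternatives for the N-glycan counts, were chosen after seeing the data. With the litter as a replicate block, the window held 9 calls at E9.25+24h where 4 were reported, and it changed no call of the neighbours. With litter 1 left out too, 1 neighbour and 2 window genes were called at E10.25+24h.

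Over the litters and libraries left out, the neighbours called ranged from 0 to 2 at E9.75+12h (2 without litter 2 or its R2b library, 1 without litter 3) and from 1 to 2 at E9.25+24h. At E9.75+12h the fit without litter 2 called 27.1% of all genes and that without litter 3 11.8%. With all libraries in one fit, 1 neighbour was called at E9.25+24h. The share of all genes called in that fit is not given, so the count is not read as a result about the neighbours. The calls over all genes, 2973 and 2335 at the first 2 exposures, were 1775 and 6086 with the block, fell as low as 434 and 322 without litter 1, and reached 4583 without R2b of litter 2 at E9.75+12h and 4560 there with all libraries in one fit. The window calls ranged from 0 to 9 at E9.75+12h (9 without R2b of litter 2) and from 1 to 4 at E9.25+24h. DESeq2 and the fit of all libraries each gave 5 at E9.75+12h. Not all of these fits have their share of all genes printed here, so these counts are not read as a result about the window. A 10 Mb window gave 20 calls of 82 genes (24.4%) at E9.75+12h and 16 of 80 (20%) at E9.25+24h. A 2 Mb window gave 2 of 11 (18.2%) and 0 of 11. Over all genes the shares were 20.0% and 15.6%. These windows hold other numbers of genes. Differences of effects between the first 2 exposures called 0 to 2 members, 2 without litter 2 of E9.75+12h, and that of Serinc1 ranged from -0.024 to 0.28. The share of all genes called in those fits is not given, so the 2 calls are not read as a result about the members.

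Signs changed only for differences near 0. At E9.75+12h, with libraries left out, Fam184a ranged from -0.095 to 0.11, Cep85l from -0.29 to 0.025, Tbc1d32 from -0.098 to 0.13, Serinc1 from -0.10 to 0.17 and Man1b1 from -0.036 to 0.033. Man1b1 was -0.0056 with median-of-ratios scaling, -0.0054 unfiltered, -0.0057 in DESeq2 and -0.019 in the fit of all libraries, where Fam184a was -0.011. At E9.25+24h Mcm9 ranged from -0.059 to 0.033, Fam184a from -0.12 to 0.012, Cep85l from -0.31 to 0.088 and Man1b1 from -0.029 to 0.020. At E10.25+24h Asf1a ranged from -0.033 to 0.085, Fam184a from -0.082 to 0.037, Cep85l from -0.26 to 0.081, Tbc1d32 from -0.011 to 0.080 and Serinc1 from -0.0044 to 0.13. Without con of litters 1 and 3, Asf1a was -0.015 and Cep85l 0.075.

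For Man1a against Ighg1 in R2b libraries, r was -0.22 without litter 1 of E10.25+24h, -0.64 without the 2 farthest libraries, 0.92 centred on exposures and 0.70 centred without litter 1. At E10.25+24h it was 0.90 without the 2 farthest. The cause of these changes was not tested.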
